A study of Mus musculus with 142 samples.

Results

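The ∆ATSS deletion on the CAST homolog removes the promoter of Dppa2 from 1 chromosome 16 of a hybrid mESC. Its members are the CAST profiles of clones A1, A8 and C4 of the line ∆ATSS.BTSS.CTSS, which come from 6 of the 142 samples of the series (an early and a late S-phase fraction for each of 3 libraries). All 3 clones derive from F121-9, a hybrid mESC line with 1 castaneus (CAST) and 1 musculus (strain-129) set of chromosomes, whose SNPs allow reads to be told apart by homolog. On CAST the clones carry ∆ATSS alone. On the musculus homolog they carry ∆ATSS, ∆BTSS (the Morc1 promoter) and ∆CTSS together, so that no intact A-TSS remains in these cells and the CAST homolog cannot be seen beside an intact musculus partner. The controls are the CAST homologs without any deletion in 43 clones of 24 other lines (51 libraries). These control clones carry deletions of OSN sites, TSSs or whole elements on the musculus homolog, and some of them were made from one another, so they are not all independent. The 3 ∆ATSS clones belong to the same line, and the tests count them as separate units. A trait or batch shared by that line cannot be told apart from the deletion. All cells were grown in 2i and LIF. They were labelled with BrdU for 2 h and sorted by DNA content. Each clone of ∆ATSS has 1 library, and p-values over clones measure the spread between clones, part of which may be technical. RT is given as log2 of early over late reads in windows of 50 kb, so positive values are early. The files hold ratios only, so the read depth of each window is unknown.

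Replication timing is the order in which segments of a chromosome are copied in S phase. Active, gene-rich chromatin is mostly copied early and silent chromatin late, and early replication control elements (ERCEs) are cis-acting segments needed for early copying of the domain around them. In the Dppa domain the elements A, B and C hold binding sites of OCT4, SOX2 and NANOG (OSN sites) beside active promoters. The paper reports that the A-TSS itself also overlaps an OSN site. Loss of the promoter and loss of that site therefore cannot be told apart in ∆ATSS. DPPA2 and DPPA4 are chromatin-binding proteins of pluripotent cells that act as a pair and sit upstream of genes of the 2-cell stage. Morc1 encodes a protein that silences transposons in the male germ line. The comparison asks whether a CAST homolog that has lost the Dppa2 promoter is copied at another time than intact CAST homologs, near the deletion and farther off. An effect of ∆ATSS on its own homolog cannot be told apart here from effects of the deletions on the musculus homolog.

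The deletion spans chr16:48309960-48310625 (mm10), 666 bases, of which the whole lies in the window from 48.30 to 48.35 Mb and takes up 1.33% of it. It lies inside element A (48308248 to 48311866), 15.7 kb beyond the end of Dppa4 and 121 kb before the start of Morc1. In GENCODE vM21 it removes the start of the shorter Dppa2 transcript at 48310477 with its whole first exon (63 bases) and the start codon. In the longer transcript, which begins at 48303908 outside the deletion, it removes all 263 bases of the second exon. Both transcripts lose the same 33 bases of coding sequence. The pair of guides that set the breakpoints are shown because they define the allele, with the PAM in capitals. They match the plus strand of the reference at 48309943 to 48309965 and at 48310609 to 48310631.
A-TSS-G1: tagacactctgtaacacagaAGG
A-TSS-G2: ctggcttccgaggaactgcgTGG
The joined ends that the listed coordinates imply are shown next, 15 bases to each side, with the right-hand side in capitals. They were not read from the clones.
Junction: gacactctgtaacacGCGTGGGTTTAAGGC

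The 200 bases before the second exon of the longer transcript (chr16:48310077-48310276, plus strand) are intronic in that transcript and upstream of the shorter one. They are shown as lost sequence outside exons, and do not adjoin the start of the shorter transcript at 48310477. Whether they act as promoter was not tested. The letters TATAAA and ACAAAG are in capitals.
A-TSS: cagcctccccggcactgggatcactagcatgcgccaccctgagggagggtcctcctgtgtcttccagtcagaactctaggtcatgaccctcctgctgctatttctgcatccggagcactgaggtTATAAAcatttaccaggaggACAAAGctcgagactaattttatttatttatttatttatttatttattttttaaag
The deleted segment has 43.7% G and C and 11 CG dinucleotides, beside medians of 40.8% and 4 over the 142663 tiles of 666 bases of chromosome 16. Searched on both strands, it holds TATAAA, the letters of a TATA box, at 2 places, and 52.3% of these tiles hold them at least once. The other place starts at 48310446, closer before the start of the shorter transcript, and is not in the printed stretch. ACAAAG (SOX-type letters) occurs at 2 places (in 49.0% of tiles), CCAAT at 3 (in 67.7% of tiles), and the octamer letters ATGCAAAT at none (in 5.94% of tiles). The searched letters do not overlap each other.

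Clones A1 and A8 stood apart from the controls over the whole genome, which touches each result that follows. The root mean square deviation from the mean of the unmodified CAST alleles was 0.363 in A1, 0.341 in A8 and 0.254 in C4. Among the 51 unmodified alleles, each set against the others, it lay between 0.137 and 0.327. Both A1 and A8 thus exceeded all 51, while 10 of the 51 exceeded C4. A value was present in 93.1% to 93.5% of windows in the ∆ATSS alleles, and in 75.2% to 93.8% (median 86.8%) in the unmodified alleles. Outside the 4 Mb around Dppa2, the chromosome 16 mean of the ∆ATSS alleles was lower than that of the control clones by 0.21 over all windows with a value. Over the 868 windows measured in every clone, it was lower by 0.03. The part of these differences in the results below was not tested.

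The Dppa domain remained early on the CAST homologs without the A-TSS, with a mean RT that was lower than that of unmodified CAST. Over the domain (48.2 to 48.6 Mb, 8 windows), RT was 0.56 in A1, 0.86 in A8 and 0.90 in C4. The 42 unmodified CAST clones with a chromosome 16 lay between 0.70 and 1.30 (1.00 ± 0.13, SD, n = 42). A1 was thus later than every unmodified clone, whereas A8 and C4 lay inside their range, with 5 and 7 of 42 clones later than they were. The mean difference was −0.23 (exact two-sided permutation test, 14190 assignments, p = 0.00775, adjusted p = 0.0414 over 7 intervals). Without A1 it was −0.12 (exact permutation adjusted p = 0.63), and C4 taken alone, a single clone that allows no firm test, differed by −0.10. Against the 4 control clones with only TSS deletions on the musculus homolog it was −0.25 (exact permutation adjusted p = 0.1, 0.0286 being the smallest raw p that 3 against 4 clones can give), and after centring on the chromosome 16 mean it was −0.02. The call was also lost against the 13 control clones with all windows of the region (−0.23, exact permutation adjusted p = 0.2125) and against the 14 with a value in at least 90% of windows (−0.24, exact permutation adjusted p = 0.185).

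**Figure D1:**
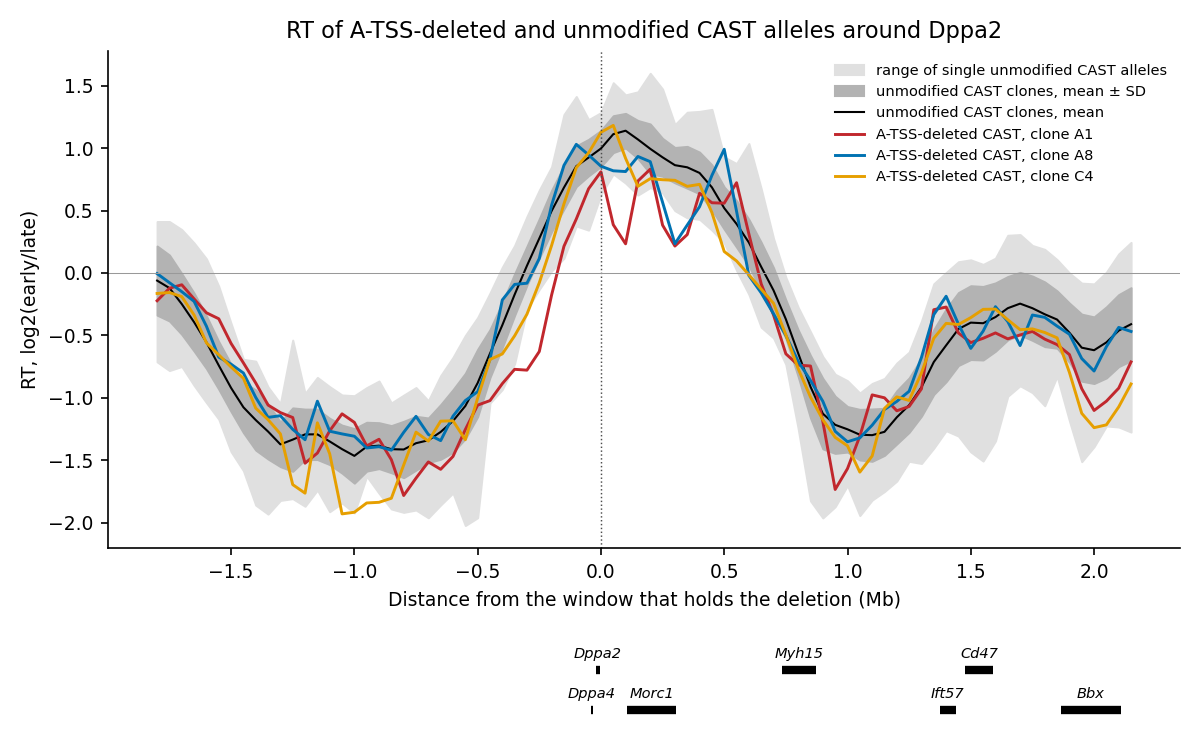
RT as log2(early/late) against distance in Mb from the 50 kb window that holds the deletion, for the CAST homolog of clones A1, A8 and C4 (coloured lines), the mean and SD of unmodified CAST clones (black line, dark band) and the range of single unmodified CAST alleles (light band), with 7 genes drawn to scale below. All 3 clones are early over Dppa2 and Morc1, and A1 drops below the light band on both sides of the deletion.

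In the window of the deletion itself, which holds the whole of Dppa2, the 3 alleles did not differ from unmodified CAST by more than the spread between clones. RT was 0.81 in A1, 0.85 in A8 and 1.13 in C4, and 1.00 ± 0.14 (SD, n = 42) in unmodified CAST, from 0.63 to 1.28. The difference was −0.07 (exact permutation p = 0.454, adjusted p = 0.636), and C4 was above the control mean. In the neighbouring window to the left, which holds Dppa4, RT was 0.67 in A1, 0.95 in A8 and 0.96 in C4, beside 0.92 ± 0.15 (SD, n = 42). With 2 further windows on each side of the deletion window, the mean was 0.51 in A1, 0.89 in A8 and 1.01 in C4. The unmodified clones had 1.01 ± 0.13 (SD, n = 42), a difference of −0.20 (exact permutation p = 0.0204, adjusted p = 0.0477). A1 was below all 42 unmodified clones there and C4 had 19 of 42 below it. This call did not survive the removal of A1 (−0.06, exact permutation adjusted p = 0.83) or of A8 (−0.25, exact permutation adjusted p = 0.0567), or of any of 23 single control clones.

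Over the 2 Mb from 47.5 to 49.5 Mb (40 windows), which the study's methods integrate, RT was −0.42 in A1, −0.18 in A8 and −0.27 in C4. Unmodified CAST clones had −0.10 ± 0.12 (SD, n = 42), from −0.44 to 0.15, so that all 3 ∆ATSS alleles lay below the mean and inside the range. The difference was −0.19 (exact permutation p = 0.0118, adjusted p = 0.0414). As an area between the mean curves (log2 units times windows), it came to −6.39 (exact permutation p = 0.0176). The areas of the single clones were −11.5 in A1, −2.14 in A8 and −5.57 in C4. Unmodified clones against their own mean had areas from −12.4 to 8.62, with 1, 8 and 6 of 42 below A1, A8 and C4. The interval difference lost its call without A1 (−0.13, exact permutation adjusted p = 0.63) and without C4 (−0.20, exact permutation adjusted p = 0.0691), and without A1 the area was −3.86 (exact permutation p = 0.2). Against the 14 control clones with a value in at least 90% of windows, an alternative chosen after seeing the data, it was −5.93 (exact permutation p = 0.0882).

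Farther off, the interval means did not differ from unmodified CAST beyond the spread between clones. In the outermost megabase on the left (46.5 to 47.5 Mb), RT was −0.88 in A1, −0.90 in A8 and −1.13 in C4, beside −0.92 ± 0.18 (SD, n = 42), a difference of −0.05 (exact permutation adjusted p = 0.738). In the outermost megabase on the right (49.5 to 50.5 Mb) it was −0.68 in A1, −0.52 in A8 and −0.68 in C4, beside −0.53 ± 0.22 (SD, n = 42), a difference of −0.10 (exact permutation adjusted p = 0.636). The neighbouring domain of Ift57 and Cd47 (49.65 to 50.05 Mb) gave the closest match. RT there was −0.45 in A1, −0.41 in A8 and −0.39 in C4, and −0.43 ± 0.25 (SD, n = 42) in unmodified CAST (difference 0.01, exact permutation adjusted p = 0.929). The sign of the left-hand and right-hand differences changed under several alternatives.

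**Figure D2:**
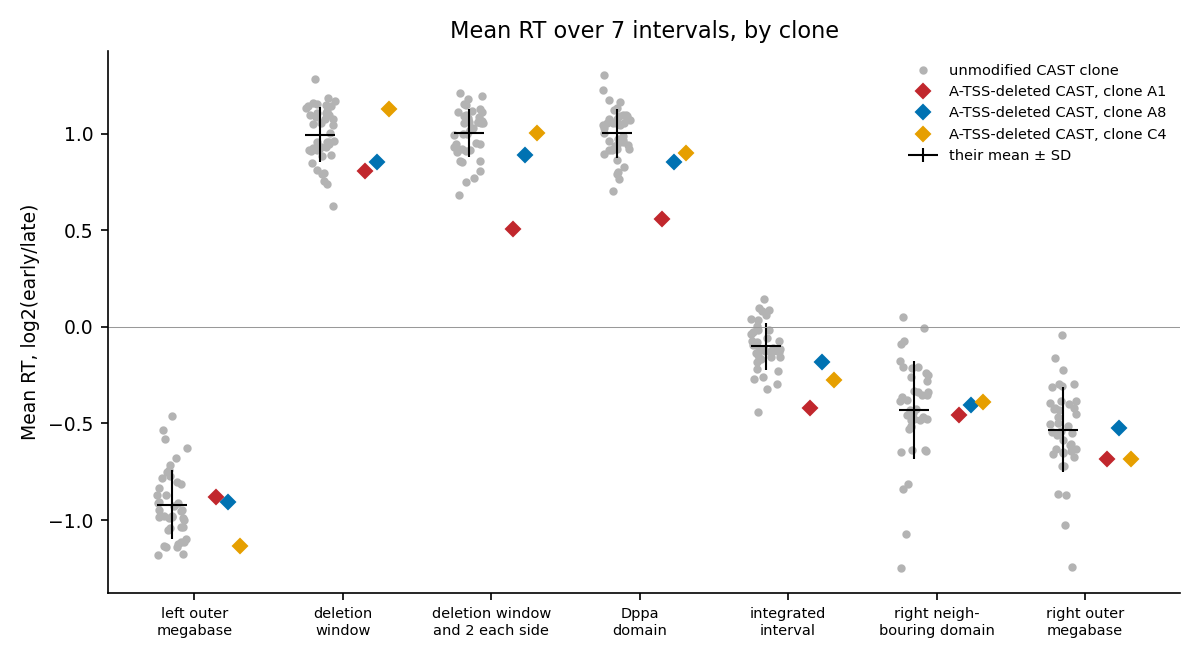
Mean RT, log2(early/late), over 7 intervals of chromosome 16 for each unmodified CAST clone (grey points, black bar and whiskers for mean ± SD) and for the CAST homolog of clones A1, A8 and C4 (diamonds). A1 lies below every grey point in the Dppa domain, at 0.56, while all 3 diamonds fall among the grey points in the outer megabases and the right neighbouring domain.

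Window by window, limma called 11 of the 69 tested windows of the 4 Mb region later on the ∆ATSS alleles and none earlier (adjusted p under 0.05 over all autosomal windows), although up to 8 were called earlier under other centrings. The share of all 39876 autosomal windows called later was 15.9%, and the share called earlier was 8.15%, so the region as a whole held later calls as often as the genome did. The later calls were not spread evenly. Of the 19 windows within 450 kb of the deletion window 10 were called, and of the 50 windows farther off 1 was called. That distance was set with the profiles known. Among autosomal windows outside the region whose mean in unmodified CAST was above 1, as in the middle of the domain, 25.7% were called later, and among those between 0.5 and 1, 10% were. Neighbouring windows share reads through loess smoothing and are not independent. Without A1, 1 of the 69 windows of the region was called later, without A8 10 and without C4 7 (windows at an adjusted p under 0.05 by limma). The later calls over all autosomal windows were then 2381 of 39880, 3024 of 39881 and 5567 of 39886.

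The windows called near Dppa2 fell on both flanks and left out the promoter. On the left flank they ran from 47.95 to 48.15 Mb over 4 windows, between the late region and Dppa4. The largest left-hand decrease was at 48.05 to 48.10 Mb, 209 kb from Dppa4, its nearest protein-coding gene. RT there was −0.63 in A1, 0.12 in A8 and −0.08 in C4, and 0.28 ± 0.16 (SD, n = 42) in unmodified CAST, whose lowest single allele had −0.13. All 3 alleles were below the control mean, and A1 was below every single unmodified allele. The difference was −0.47 (SE 0.11, limma adjusted p = 0.00105), and without A1 it was −0.26 (limma adjusted p = 0.163).

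The clones did not share the flanks equally. Over the windows 250 to 450 kb to the left of the deletion window, the mean difference from unmodified CAST was −0.64 in A1, −0.01 in A8 and −0.27 in C4. Over those from 250 kb to under 500 kb to the right it was −0.40 in A1, −0.33 in A8 and −0.15 in C4. A8 was thus lower on the right flank and at the control mean on the left, whereas A1 and C4 were lower on both.

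Over Morc1, whose promoter is intact on these CAST homologs, 4 of 5 windows, which are smoothed neighbours, were called later by limma. Of all autosomal windows 15.9% were. Outside the region it was 25.7% of those with an unmodified mean above 1 and 10% of those between 0.5 and 1. The unmodified means of the windows of Morc1 ran from 0.86 to 1.14, so both levels apply. Without A1, 1 window of the whole 4 Mb region was called later, beside 2381 of 39880 autosomal windows. Mean RT over Morc1 was 0.48 in A1, 0.69 in A8 and 0.77 in C4, and 1.00 ± 0.13 (SD, n = 42) in unmodified CAST clones, from 0.75 to 1.32. Both A1 and A8 lay below every unmodified clone over this gene, and C4 just above the lowest. The largest fall was in the window from 48.40 to 48.45 Mb, with 0.23 in A1, 0.81 in A8 and 0.92 in C4 beside 1.14 ± 0.14 (SD, n = 42), which is a limma difference of −0.48 (SE 0.10). Next came the window from 48.60 to 48.65 Mb, which holds the end of Morc1. Here A1 had 0.22, A8 had 0.23 and C4 had 0.74, beside 0.86 ± 0.14 (SD, n = 42), which is a limma difference of −0.47 (SE 0.10). The lowest single unmodified allele had 0.50 in that window, so A1 and A8 were outside the range and C4 inside it. Gm5485, a predicted gene between Dppa2 and Morc1, shares its windows with the start of Morc1, and both of its windows were called later.

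Right of Morc1, the 9 genes from Trat1 to Cd47 had no called window, with 1 to 3 tested windows each. Of all autosomal windows, 15.9% were called later and 8.15% earlier. With so few smoothed windows, the lack of calls says little about these genes. Trat1, an adaptor of the T cell receptor, had 0.60 in A1, 0.66 in A8 and 0.60 in C4 beside 0.74 ± 0.17 (SD, n = 42). Myh15, a myosin heavy chain gene, had −0.71 in A1, −0.69 in A8 and −0.75 in C4 beside −0.64 ± 0.18 (SD, n = 42). At the resistin-like gene Retnlb the clones parted, with 0.56 in A1, 0.99 in A8 and 0.17 in C4 beside 0.52 ± 0.17 (SD, n = 42), so that A8 was above every unmodified clone and C4 below every one. The largest increase to the right was near Ift57, a gene of ciliary transport. At 49.65 to 49.70 Mb, 24.2 kb from it, RT was −0.29 in A1, −0.33 in A8 and −0.52 in C4, beside −0.71 ± 0.26 (SD, n = 42). All 3 were earlier than the mean and none was outside the range of single alleles (difference 0.33, SE 0.14, limma adjusted p = 0.0878).

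A decrease of the size seen beside Dppa2 also stood 2.0 Mb away. In the window from 50.30 to 50.35 Mb, inside Bbx, which encodes an HMG-box protein, RT was −1.10 in A1, −0.79 in A8 and −1.24 in C4. Unmodified CAST had −0.62 ± 0.27 (SD, n = 42), and the single alleles went down to −1.39. The difference was −0.42 (SE 0.15, limma adjusted p = 0.0325), and no allele left the unmodified range. Without A1 or without C4 this call was lost (limma adjusted p = 0.166 and 0.198). On the far left, at 46.85 to 46.90 Mb, 1409 kb from Dppa4, RT was −0.72 in A1, −0.80 in A8 and −0.84 in C4 beside −1.08 ± 0.20 (SD, n = 38), a difference of 0.29 (SE 0.12, limma adjusted p = 0.0677).

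**Figure D3:**
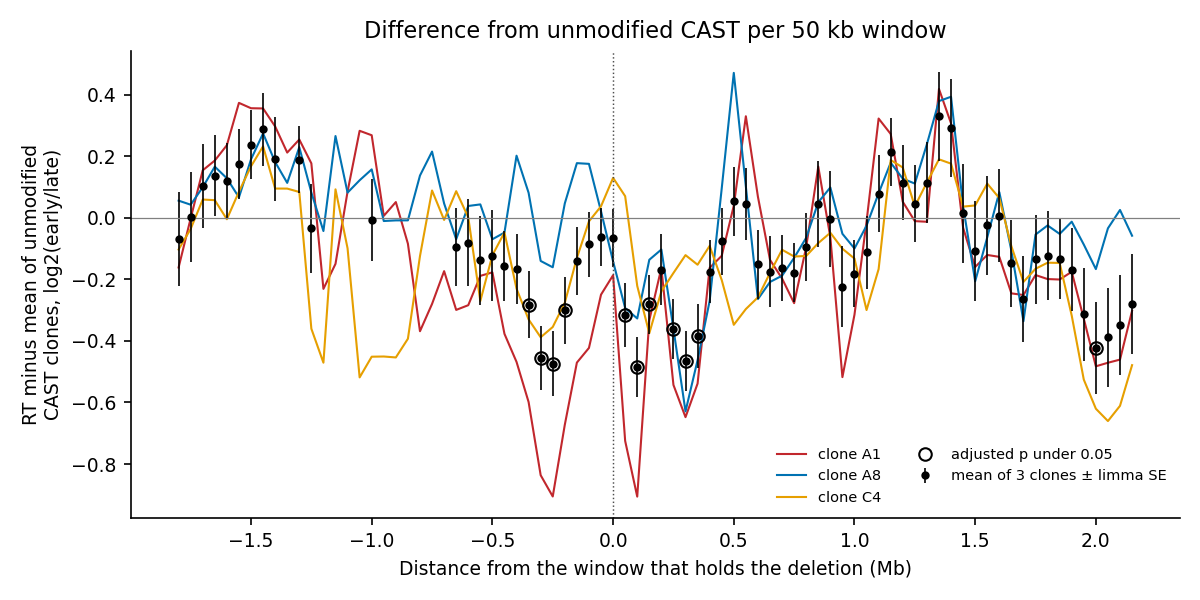
RT of each ∆ATSS CAST allele minus the mean of unmodified CAST clones, in log2 units, against distance in Mb from the deletion window (coloured lines), with the mean of the 3 clones and its limma SE (black points, given where the window was tested) and circles where the adjusted p was under 0.05. Of the 11 circled windows, 10 lie within 450 kb of the deletion window on both sides and 1 lies 2.0 Mb to the right, and none is at the deletion window.

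No window of the region had all 3 ∆ATSS alleles below the lowest single unmodified CAST allele (0 of 71 ranked windows). Over the autosomes such windows made up 0.584%, and windows with all 3 above the highest made up 0.567%. Taken singly, A1 was below the lowest unmodified allele in 9 of the 71 windows, A8 in 3 and C4 in 2. The corresponding autosomal shares were 9.68% for A1, 8.7% for A8 and 4.82% for C4. All 9 windows of A1 and all 3 of A8 were within 450 kb of the deletion window, and 1 of the 2 of C4 was. In 4 of the 71 windows 2 of the clones were below the range at once, namely 48.00 Mb (A1 and C4) and the 3 windows from 48.55 to 48.70 Mb (A1 and A8). The autosomal share of windows with 2 clones below was not computed, so this count is a description only.

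The area over the Dppa2 tile was also set beside the areas of all other adjoining tiles of 2 Mb on the autosomes, with no test. Of 1124 tiles, 354 (31.5%) had a lower area than −6.39, and 437 (38.9%) had a larger one in absolute size. Their median was −3.49, and 1 tile in 20 was below −11.5 and 1 in 20 above 7.58. On chromosome 16, 17 of the 46 other tiles had a lower area. The difference around Dppa2 was therefore of a size that recurred over much of the genome in these 3 clones.

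**Figure D4:**
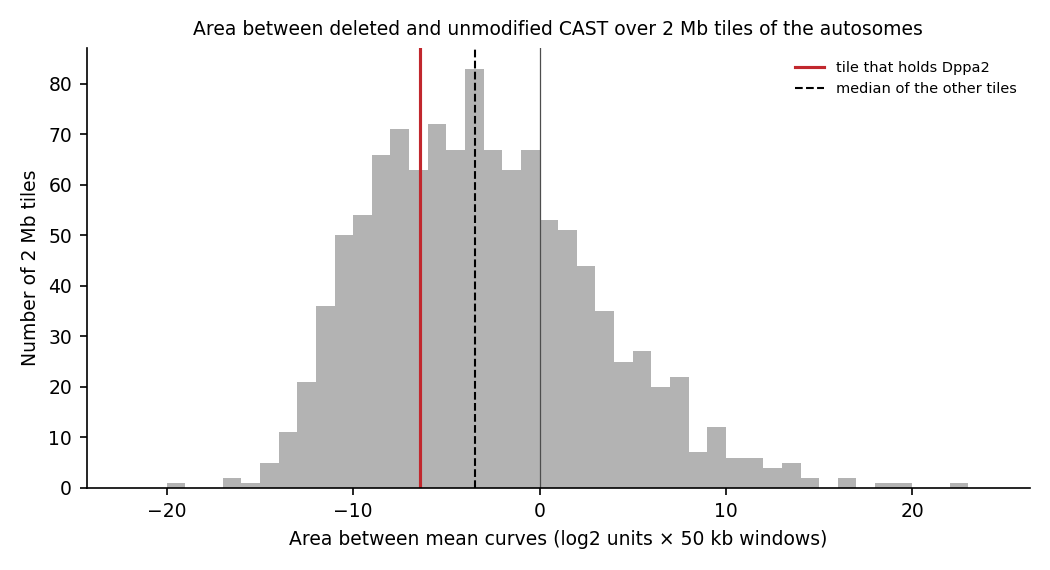
Number of 2 Mb tiles of the autosomes (y axis) by the area between the mean curve of the 3 ∆ATSS CAST alleles and that of unmodified CAST clones (x axis, log2 units times 50 kb windows). The tile that holds Dppa2, at −6.39 (red line), lies inside the bulk of the tiles, whose median is −3.49 (dashed line).

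Elsewhere, long runs of windows called by limma held all 3 clones or A1 and A8 alone. A later run on chromosome 17 (20 windows, 68.60 to 69.60 Mb, L3mbtl4 to Akain1) had the 3 clones between −0.65 and −0.61, below the lowest unmodified clone at −0.48. In the gene-dense run on chromosome 4 (21 windows, 132.55 to 133.60 Mb, 27 genes), RT was 0.50 in A1, 0.27 in A8 and 1.25 in C4. The unmodified mean there was 1.23, so C4 was at the mean while A8 was below the whole range and A1 near its lower end of 0.47.

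The longest earlier run (29 windows, chromosome 4, 153.40 to 154.85 Mb) holds 16 protein-coding genes, among them Trp73 and Prdm16, which both encode transcription factors. RT was 1.11 in A1, 1.04 in A8 and 0.93 in C4, above all unmodified clones (−0.19 to 0.58). On chromosome 6 (26 windows, 31.60 to 32.90 Mb, with the axon guidance receptor gene Plxna4), the 3 clones had 0.37 in A1, 0.13 in A8 and 0.18 in C4, above the highest unmodified clone at 0.05. A run on chromosome 2 (24 windows, 92.55 to 93.75 Mb, with Ext2 and Alx4) had 1.12 in A1, 0.89 in A8 and 0.81 in C4 beside an unmodified mean of 0.33, and C4 lay within the range of unmodified clones there. The musculus homologs of the same libraries moved the same way in these 5 runs, by −0.21 and −0.45 in the later runs on chromosomes 17 and 4. In the earlier runs they differed by 0.51, 0.43 and 0.59 on chromosomes 4, 6 and 2, in each case against the musculus homologs of the control clones. These differences are descriptions, since both homologs come from the same libraries.

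The loci of pluripotency genes were set beside those of other cell types to check the profile as that of mESCs. All 13 pluripotency loci had a mean above 0 on the ∆ATSS alleles, and so did 8 of 12 genes of other cell types, so that RT at these lists separates cell types only in part. By limma, 7 of 13 were called later and none earlier, beside a background of 15.9% of windows called later. At 12 of the 13 loci the unmodified mean was above 1, and of windows outside the 4 Mb region at that level 25.7% were called later. The 7 were Pou5f1 (encoding OCT4), Nanog, Tfcp2l1, Zfp42, Dppa3, Dppa5a and Tdgf1. The median difference over the 13 was −0.31, beside a median of −0.07 over all windows tested. Windows outside the 4 Mb region with an unmodified mean above 1 had a mean difference of −0.14. Without A1 the count was 1 of 13, without A8 2 and without C4 8 (limma, adjusted p under 0.05). In the same fits, 2381 of 39880, 3024 of 39881 and 5567 of 39886 autosomal windows were called later. Of 11 windows with genes of other cell types, such as Sox1 and Myod1, limma called none in either direction, and their median difference was 0.07.

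Nanog, a core pluripotency factor, showed how the clones parted. RT at Nanog was 0.24 in A1, −0.01 in A8 and 1.24 in C4, beside 1.13 ± 0.31 (SD, n = 41) in unmodified CAST clones. The limma difference was −0.64 (SE 0.18, adjusted p = 0.00801). Zfp42, which encodes the marker REX1, had −0.09 in A1, −0.22 in A8 and 0.68 in C4 beside 0.78 ± 0.28 (SD, n = 43), and a limma difference of −0.66 (SE 0.16, adjusted p = 0.00277). Pou5f1 had 0.40 in A1, 0.51 in A8 and 1.28 in C4 beside 0.56 to 1.52 in unmodified CAST clones (SD 0.21, n = 41). C4 was close to the control mean at these 3 genes and A1 and A8 were below it. Over the 13 loci, A1 was below the lowest unmodified clone at 5, A8 at 4 and C4 at 1. The share of all windows below the lowest clone was not computed. Below the lowest single unmodified allele, a related measure, were 9.68% of autosomal windows in A1, 8.7% in A8 and 4.82% in C4. Esrrb, by contrast, had 1.41 in A1, 1.27 in A8 and 1.47 in C4 beside 1.35 ± 0.12 (SD, n = 41).

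On the musculus homologs of the same libraries the medians over these loci put the clones in the same order, but single loci did not all do so. The median difference from the musculus homologs of the control clones over the 13 loci was −0.45 in A1, −0.35 in A8 and −0.09 in C4. The values on CAST were −0.48, −0.34 and −0.04. At Zfp42 the musculus homolog had 0.07 in A1, 0.31 in A8 and 0.75 in C4, beside 0.76 to 1.29 in the control clones. A1 was thus the lowest on that homolog, whereas A8 was the lowest on CAST. At Tdgf1, C4 was the lowest clone on CAST (0.90) and the highest on the musculus homolog (1.35). At Tfcp2l1 the musculus homolog of A1 had 1.41, above the mean of 1.22, while its CAST homolog had 0.37. RT is not expression, and whether these genes were transcribed differently was not tested here.

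**Figure D5:**
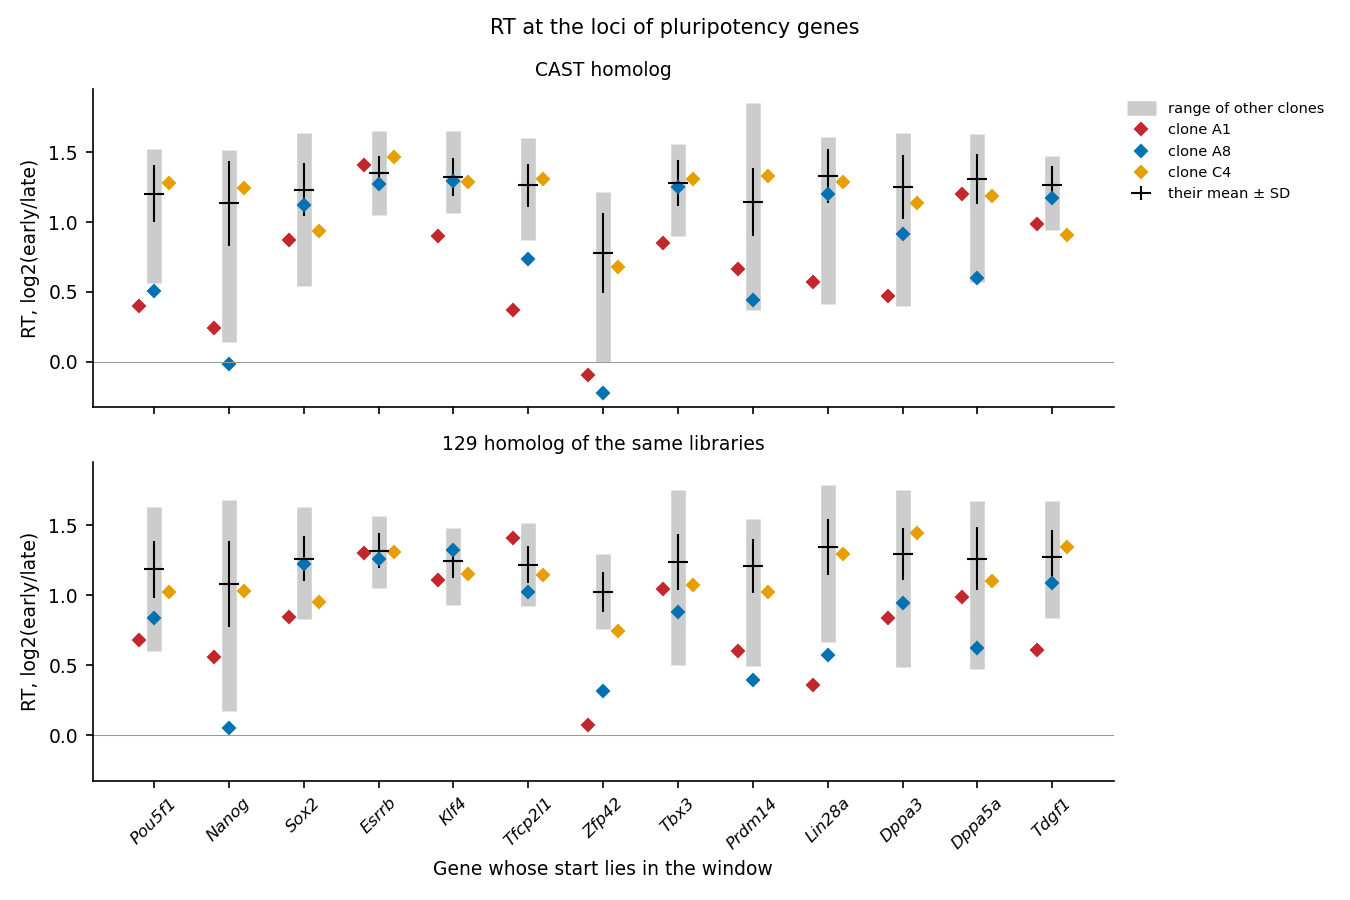
RT, log2(early/late), in the window that holds the start of each of 13 pluripotency genes, on the CAST homolog (top) and the musculus (strain-129) homolog (bottom) of clones A1, A8 and C4 (diamonds), with the range (grey bar) and mean ± SD (black) of the control clones. On CAST, A1 has 0.24 and A8 −0.01 at Nanog, and A1 has −0.09 and A8 −0.22 at Zfp42, while C4 lies near the control mean at both.

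Among the loci of the 2-cell stage, most of which lie in repeated sequence, 7 of 18 windows could be tested and limma called 2 of them later and none earlier, beside 15.9% of all windows called later. Zfp352 had −1.82 in A1, −1.93 in A8 and −1.25 in C4 beside −1.05 ± 0.24 (SD, n = 40), a limma difference of −0.61 (SE 0.14, adjusted p = 0.0015). Zscan4a had −1.54 in A1, −1.01 in A8 and −0.83 in C4 beside −0.76 ± 0.23 (SD, n = 42), a limma difference of −0.37 (SE 0.14, adjusted p = 0.0454). C4 was the nearest to the control mean at both. Duxf3, which encodes the factor DUX, had 0.03 in A1, 0.93 in A8 and 0.64 in C4 beside 0.53 ± 0.16 (SD), so the clones lay on both sides of the mean (difference 0.01). Near-identical copies of these genes share reads, and their values are uncertain.

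The musculus homolog of the same clones, which carries ∆ATSS.BTSS.CTSS, was later than the CAST homolog in each clone over the Dppa domain. It had 0.28 in A1, 0.37 in A8 and 0.21 in C4, and the 3 unmodified musculus libraries (2 clones) had 0.96, 1.01 and 1.02. Over the same domain, CAST homologs with another deletion gave the following values, set side by side with no test. The CAST homolog with ∆BTSS (1 clone) had 0.46. With ∆CTSS (1 clone, 2 cultures) it had 1.30 and 1.06, and with the CR11.8k deletion within element C (1 clone) 0.86. With ∆B, clone 5A.7 had 0.63 and 0.58 in 2 cultures, and the other 3 clones lay between 0.81 and 1.02. The ∆ATSS values of 0.56, 0.86 and 0.90 thus lay among those of the other deletions on CAST.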

How the data were processed

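The deposited values are log2 ratios of early to late S-phase reads. The authors trimmed reads with Trim Galore and cutadapt, aligned them to N-masked mm10, split them by SNPs and counted them in 50 kb windows with bedtools. They then took log2 of early over late counts, and scaled, quantile normalised and loess-smoothed the profiles. Smoothing makes neighbouring windows dependent, and quantile normalisation fixes each profile's distribution. The table has 138 columns, all matched to samples by name, and 49264 windows on 19 autosomes. It holds no counts, so depth and counting error are unknown.

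Columns of one library and then libraries of one clone were averaged, which took the 53 control columns (51 libraries) to 43 control clones, beside 3 deletion clones. Means over 7 intervals of chromosome 16 were compared by the exact two-sided permutation test over clones, adjusted by Benjamini-Hochberg over the 7. Each autosomal window with values in all 3 deletion clones and in at least 80% of control clones was fitted with limma 3.58.1 (R 4.3.3), adjusted over all such windows at 0.05. The code of both tests was checked on simulated, independent values. Such values have no smoothing and no shared line, so these checks cannot show how the tests behave on the present profiles. Permutations and descriptions used Python 3.11.15 with numpy 2.4.6, scipy 1.17.1 and pandas 2.3.3, and figures matplotlib 3.10.9. Named with values were Dppa2, Dppa4, Morc1, the largest difference in each direction on each side of the Morc1 gene, and the 3 longest runs of called windows in each direction. The gene nearest to each of these differences was sought only among the protein-coding genes of the 4 Mb region. Of these runs 1 is not reported here. Other windows and genes given with values were chosen after their values were seen. The members, intervals and gene lists (pluripotency genes, genes of the 2-cell stage, genes of other cell types) were chosen with earlier results of these data known. The alternatives were single libraries, controls from TSS-deletion clones, other centrings, interpolated or complete windows, control clones of high coverage, limma with a trend and robust prior, and leaving out each clone.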

Additional observations from a re-analysis of the deposited data

How the results depend on the processing

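The lower RT over the Dppa domain kept its sign under each alternative run. It kept its call with each of 42 control clones left out, but among the other 12 alternatives it kept the call under 5 and lost it under 7. The call for the deletion window with 2 windows on each side was kept with 19 of the 42 control clones left out and, in all, lost under 30 alternatives and reversed in sign under 2. Leaving out each deletion clone in turn, the difference ranged from −0.16 to −0.0060 in the deletion window, −0.31 to −0.056 with 2 windows on each side, −0.29 to −0.12 in the domain and −0.25 to −0.13 over 47.5 to 49.5 Mb. It ranged from −0.098 to 0.028 in the left outer megabase, −0.15 to −0.070 in the right one and −0.0018 to 0.031 in the right neighbouring domain, and the area from −8.52 to −3.86. The counts of called windows ranged from 2381 to 5567 later and 1142 to 3369 earlier on the autosomes and from 1 to 10 later in the 4 Mb region, and the pluripotency loci called later from 1 to 8. Leaving out each of 42 control clones gave −0.08 to −0.06 in the deletion window, −0.21 to −0.20 with 2 windows on each side, −0.24 to −0.22 in the domain, −0.20 to −0.19 over 47.5 to 49.5 Mb, −0.06 to −0.04 and −0.12 to −0.09 in the left and right outer megabases, −0.0081 to 0.024 in the right neighbouring domain and −6.70 to −6.18 as the area. With single libraries as units, the deletion window with 2 on each side gave −0.20 (exact permutation adjusted p = 0.0542).

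With the 4 control clones of the TSS series, differences were −0.19 with 2 windows on each side, −0.25 in the domain, −0.24 over 47.5 to 49.5 Mb and 0.075 in the right outer megabase. There were then 3520 windows called later, 6 of them in the region, 1 window called earlier in the region, and 4 pluripotency loci called later. Centring each allele on its chromosome 16 mean gave 0.14 in the deletion window and at Dppa2, 0.0041 with 2 windows on each side, −0.021 in the domain, 0.016 over 47.5 to 49.5 Mb, 0.16 and 0.11 in the left and right outer megabases and an area of 1.54. It left 894 windows called later and 8470 earlier, 0 later and 8 earlier in the region, and 2 pluripotency loci. This centring compares means over unequal sets of windows, because the deletion libraries had values in more of them. Centring on the windows measured in every clone, chosen after seeing the data, gave −0.18 with 2 windows on each side and −0.20 in the domain (exact permutation adjusted p = 0.107 and 0.0878), with 2 windows of the region called earlier. Interpolation gave 0.028 in the left outer megabase.

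Only control clones with all windows of the region (13) gave −0.20 with 2 windows on each side, −0.23 in the domain, −0.15 over 47.5 to 49.5 Mb, 0.10 in the left outer megabase, −0.048 in the right neighbouring domain and an area of −6.26, and each call was lost (exact permutation adjusted p = 0.2125 for the 3 intervals around Dppa2, p = 0.109 for the area). The 14 control clones with a value in at least 90% of windows, chosen after seeing the data, gave −0.21, −0.24, −0.15, 0.082, −0.090 and −5.93 in the same order, with 3187 windows called later, 7 of them in the region, and 3 pluripotency loci. The domain call was lost here too (exact permutation adjusted p = 0.185). Requiring a value in every clone left 3130 windows called later and 2 pluripotency loci of 3 tested. Clone C4 alone, also chosen after seeing the data, gave 0.13 in the deletion window and at Dppa2, 0.00092 with 2 windows on each side, −0.10 in the domain, −0.17 over 47.5 to 49.5 Mb and an area of −5.57. It left 37 windows called later and 22 earlier, and 0 in the region and 0 pluripotency loci called later. With 1 clone against 42, the smallest p of the permutation test is 0.0233 before adjustment, so these lost calls say little about C4. The cause of these changes was not tested, apart from the smaller number of clones or windows that some alternatives use. No paired analysis was possible because the ∆ATSS and the unmodified CAST homologs come from different clones. The labels of the deletion libraries also carry no replicate number, and theirs were given in accession order. Both homologs of a library differ in strain and in deletions, and were set side by side without a test.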
